A study of Mus musculus with 63 samples.

Results

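Translation factors and proteins of nucleolar ribosome biogenesis were followed as 1 group of genes across single mouse progenitors of innate lymphoid cells. The group was set by gene symbol: every symbol that begins with Eif1 to Eif6 or with Eef1 or Eef2, pseudogene names and Eif2s3y aside, and the 12 genes Npm1, Ncl, Fbl, Nop56, Nop58, Nop10, Dkc1, Nhp2, Gnl3, Nolc1, Myc and Polr1b. This rule took 78 of the 23420 rows of the deposited table, 66 by their prefix and 12 by name. It used no measured value. The prefix also caught Eif2c1 to Eif2c4, older symbols of the 4 Argonaute genes of small RNA silencing, which are not translation factors and are described apart.

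Initiation factors bring the small ribosomal subunit, the initiator tRNA and the messenger RNA together at the start codon, and elongation factors then deliver each aminoacyl-tRNA and move the ribosome along. The ribosome itself begins in the nucleolus, where RNA polymerase I makes the precursor ribosomal RNA and small nucleolar ribonucleoproteins (snoRNPs) guide its chemical modification, box C/D particles for methylation and box H/ACA particles for pseudouridine. MYC is a transcription factor known for raising many of these genes, and a growing or dividing lymphoid progenitor is known to need both arms.

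The study profiled common helper innate lymphoid progenitors (CHILPs), the marrow cells that give rise to helper-like innate lymphoid cells. Of its 63 single-cell libraries, 29 were WT-CHILPs and 34 were iR9-CHILPs, which the study title places in work on regenerating innate lymphoid cells from pluripotent stem cells. Both groups were of the strain C57BL/6 and were sorted as CD45.2+, Lin-, CD127+, CD135-, α4β7+, Sca1 mid or negative and CD25-. The iR9 cells were also GFP+ and came from marrow of Rag2-/-Il2rg-/- mice, hosts that lack mature lymphocytes, 4 weeks after transplantation. No treatment, sex, age or source animal is named for the WT cells, and no promoter, clone or host animal for the iR9 cells.

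Values are TPM, the share of transcripts given to a gene after correction for its length, with the same sum in every library. Most iR9 cells appear as a pair of libraries of the same number with title suffix 2 or 3, whose Pearson r lay between 0.974 and 0.992 in the 15 pairs, against at most 0.422 over 210 pairs of different numbers. Each such pair was averaged and counted as 1 cell, which left 29 WT and 19 iR9 cells: 3 of suffix 1, 15 averaged pairs and 1 cell with a suffix 3 library alone. The cells of a group name no separate animals or cultures, so each group is 1 sample, no test between the groups was made, and every SD below is a spread over cells.

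The label of the cells was checked against 14 genes of innate lymphoid progenitors. At least 3 of them reached 10 TPM in 29 of 29 WT and 18 of 19 iR9 cells. Of the 14, 11 had a lower mean in iR9 cells (78.6%), near the 81.4% of all genes that passed the filter explained below. On the log2 scale explained there, 8 were lower by at least 2 (57.1%, against 14.4% of all genes) and 1 was higher by at least 2 (7.14%, against 1.72%). At 10 TPM, Id2 was found in 29 WT and 19 iR9 cells, Cxcr6 in 9 and 17, Il7r in 25 and 16, Gata3 in 24 and 8, Tcf7 in 22 and 5, Tox in 20 and 1 and Cd27 in 14 and 0, and Zbtb16, a transcription factor that defines many such precursors, was at 0 in all iR9 cells. The iR9 cells thus met the label by some of its markers and not by others. The iR9 cell 12-1 held 9 of 10 mast cell and basophil markers at 10 TPM or more, and 4 of 10 myeloid markers. Of the WT cells, 4-1 and 28-1 held 3 mast cell and basophil markers each, 21-1 held 3 myeloid markers and 26-1 held 4. Without these 5 cells 25 of 67 members that passed were lower by at least 2, where 18.6% of all genes were, and without 12-1, 21-1 and 26-1 alone 24 of 67 were, against 16.99%. At least 3 of 12 dendritic cell markers reached 10 TPM in 24 WT and 4 iR9 cells, the summed erythroid markers had a median of 0.928 TPM in WT and 683 TPM in iR9 cells with Alas2 at 0 in all, and B and T cell markers reached 3 genes in no cell. The part of these markers in the differences was not tested. Gapdh was listed at 0 in 5 of the 48 cells and Hprt in 8, so a value of 0 below means listed at 0 and not absent. The number of genes at 1 TPM or more had a median of 2938 in WT cells (1189 to 5939) and 1732 in iR9 cells (1514 to 3238). Within iR9 it was 3033 for the 3 cells of suffix 1 and 1685 for the other 16. The group and this number could not be told apart over all cells, so main results are also given for the 16 WT and 19 iR9 cells between 1514 and 3238 genes, called the shared range below, where the medians were still 2495 and 1732.

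Short stretches of promoter are shown because the E-box, the 6-letter motif bound by MYC with its partner MAX, can be read directly in some of these genes. RefSeq windows on GRCm38.p6, from 250 bases before to 50 bases after a transcription start, matched 57 of the 78 members. The motif CACGTG reads the same on both strands, and other E-box letters were not searched. It was in 12 of the 57 members (21.1%), and in 2187 of all 27025 genes in the table (8.09%). Of those that passed the expression filter described below, it was in 11 of 51 members (21.6%) and in 699 of 5599 genes (12.48%), and per window it was in 2349 of 32851 of that length (7.15%). The members were Eif1b, Eif3a, Eif3f, Eif3k, Eif4a1, Eif4e, Eif4g1, Eif4h, Eif5a, Eif5a2, Eef2 and Eef2k, so it was in factors with lower and with higher means in iR9 cells. The 5 stretches below run 5′ to 3′ on the strand of the gene, 60 bases each, with the motif in capitals. Eif4a1 lies on the minus strand at chr11:69672580-69672639, Eif3f on the plus strand at chr7:108934320-108934379, Eef2 on the plus strand at chr10:81176561-81176620, Eif4h on the minus strand at chr5:134639473-134639532 and Eif5a on the minus strand at chr11:69921428-69921487. A match is a description of letters, not a site of binding or a cause of any value.
Eif4a1: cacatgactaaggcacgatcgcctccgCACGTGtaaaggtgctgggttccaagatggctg
Eif3f: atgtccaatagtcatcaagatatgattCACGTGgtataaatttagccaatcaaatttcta
Eef2: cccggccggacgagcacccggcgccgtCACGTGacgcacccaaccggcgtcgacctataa
Eif4h: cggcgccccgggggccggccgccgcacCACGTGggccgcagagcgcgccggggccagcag
Eif5a: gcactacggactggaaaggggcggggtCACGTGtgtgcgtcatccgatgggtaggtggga

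Most members had a lower mean of log2(TPM + 1) in iR9 than in WT cells, as did most of all genes. On this scale Eif1 and Eif5a, both abundant, had higher means and Eef1a1, the most abundant, a lower one. The mean TPM of Eif5a was lower in iR9 cells (1702) than in WT cells (2143). A gene passed the filter if 10% or more of the 48 cells had it at 1 TPM or above, which 7421 genes and 68 of the 78 members did. The difference is the mean of log2(TPM + 1) over iR9 cells minus that over WT cells. A difference of 2 is a 4-fold change in the geometric mean of TPM + 1, not in mean TPM. For a gene near 0 in some cells and high in others, it largely follows how many cells are high. The added 1 makes it smaller for genes of low level. Of the 68 members, the iR9 mean was lower for 60 and higher for 8, where 81.4% and 18.6% of all genes that passed did so. The 8 higher members were Eif1, Eif5a, Eif4h, Eif4e3, Eif1b, Eif4ebp1, Nhp2 and Eif2c3. A difference of -2 or lower was found for 22 members (32.4%), against a background of 14.4%, and a difference of 2 or higher for 0 members, against a background of 1.72%. The median difference was -1.51 for the members and -0.88 for all genes.

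This excess depended on which cells were set side by side and on the scale. As log2 ratios of mean TPM, 10 of 68 members were lower by at least 2 (14.7%), fewer than the 26.9% of all genes, and the median was -0.34 for members and -0.56 for all genes. In the shared range, 61 members passed, 39 had a lower mean where 64.2% of all genes did, and 7 were lower by at least 2 (11.5%, against 9.36% of all genes). Nhp2 alone was higher by at least 2, against a background of 3.84%. All 22 members called lower over all cells still had a lower mean there, but these cells were among those that set the calls. The kept direction is therefore no separate support. Of the 22, 7 stayed past -2 in the shared range, namely Npm1, Eif3d, Eef1b2, Eif4a1, Nop56, Eif3h and Eif3c. The median there was -0.52 for members and -0.43 for all genes. With the 3 iR9 cells of suffix 1 alone, 41 of 69 members had a lower mean (59.4%, against 62.1% of all genes), 19 were lower by at least 2 (background 14.8%), and the median was -0.49 against -0.70 for all genes. There 8 members were higher by at least 2, as were 852 of all 7758 genes that passed. Of the 22 members called lower over all cells, 18 had a lower mean in the suffix 1 cells and 12 were lower by at least 2 there. These 3 cells also took part in setting the calls. Among the 35 members detected in at least 50% of cells, 14 were lower by at least 2 (40.0%, against 23.6% of such genes), 0 were higher by at least 2 (background 5.11%), 31 had a lower mean (background 71.0%) and 4 a higher one (background 29.0%).

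**Figure D1:**
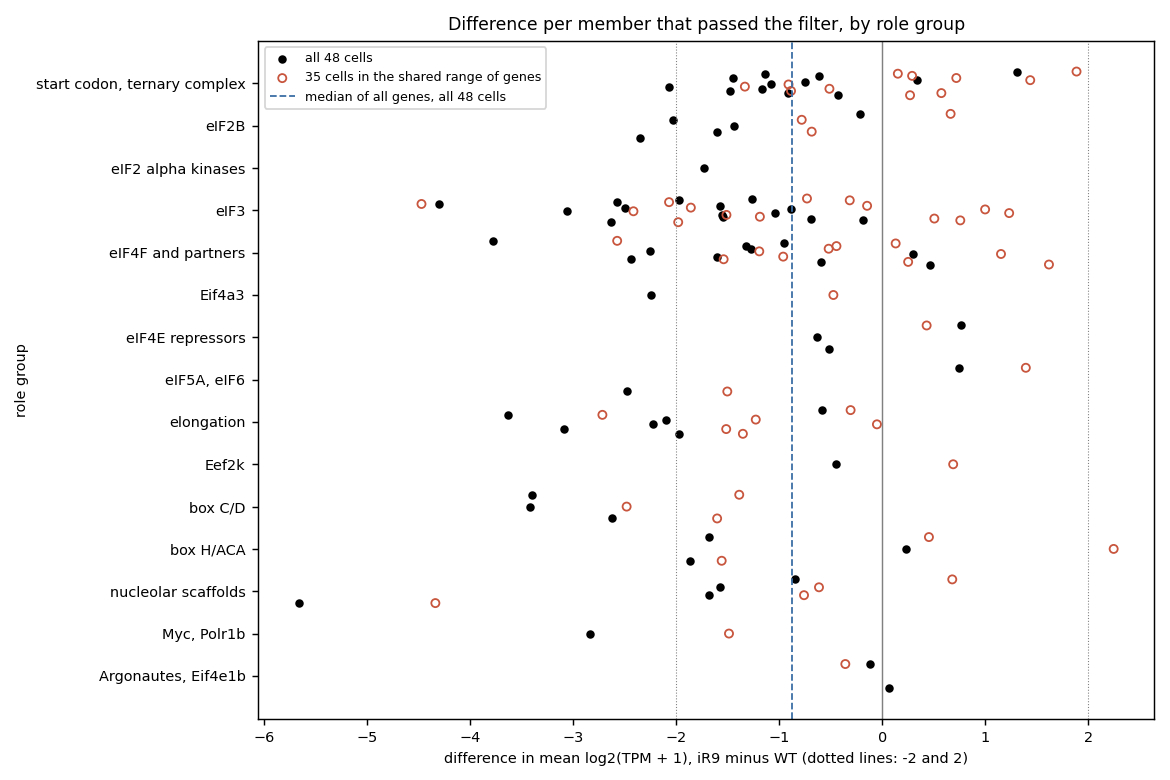
Difference in mean log2(TPM + 1), iR9 minus WT, for each member that passed the filter, by role group. Filled points use all 48 cells and open points the 35 cells in the shared range of genes detected; the dashed line is the median of all genes over 48 cells, -0.88. Npm1 is the leftmost filled point, and most open points lie to the right of the filled points of their group.

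The number of members in a cell followed the number of all genes in it. At 1 TPM or more, WT cells held a median of 37 members (16 to 65) and iR9 cells 25 (15 to 40). As a share of all genes detected, the medians were 1.26% for WT and 1.43% for iR9 cells, so members were not a smaller part of what an iR9 cell showed. Over WT cells (n = 29), the Pearson r between genes detected and members detected was 0.96, as was Spearman rho, and over iR9 cells (n = 19) these were 0.73 and 0.61. Each point takes both counts from 1 library, or 1 averaged pair, and shares its depth, so these are descriptions.

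Low values differed between the groups, but 15 of the 19 iR9 cells average a pair of libraries and WT cells do not. Of all member values, 41.9% were at 0 in WT cells, 44.4% in the suffix 1 cells and 43.4% in the other iR9 cells. Values above 0 but below 10 TPM made up 12.6%, 14.96% and 33.3% in the same order, and values of 10 TPM or more 45.5%, 40.6% and 23.3%. At any TPM above 0 the median number of members was 44 in both groups, while at 10 TPM it was 34 in WT and 19 in iR9 cells. Between paired libraries of an iR9 cell, 281 member values were at 0 in one library only, and the other library then had a median of 0.730 TPM and reached 10 TPM in 3 of the 281. Averaging turned each of these into a value above 0. The shares at 0 and below 10 TPM, and the equal medians of 44, are therefore not like for like between the groups. Counts of cells at 10 TPM are given below for this reason.

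**Figure D2:**
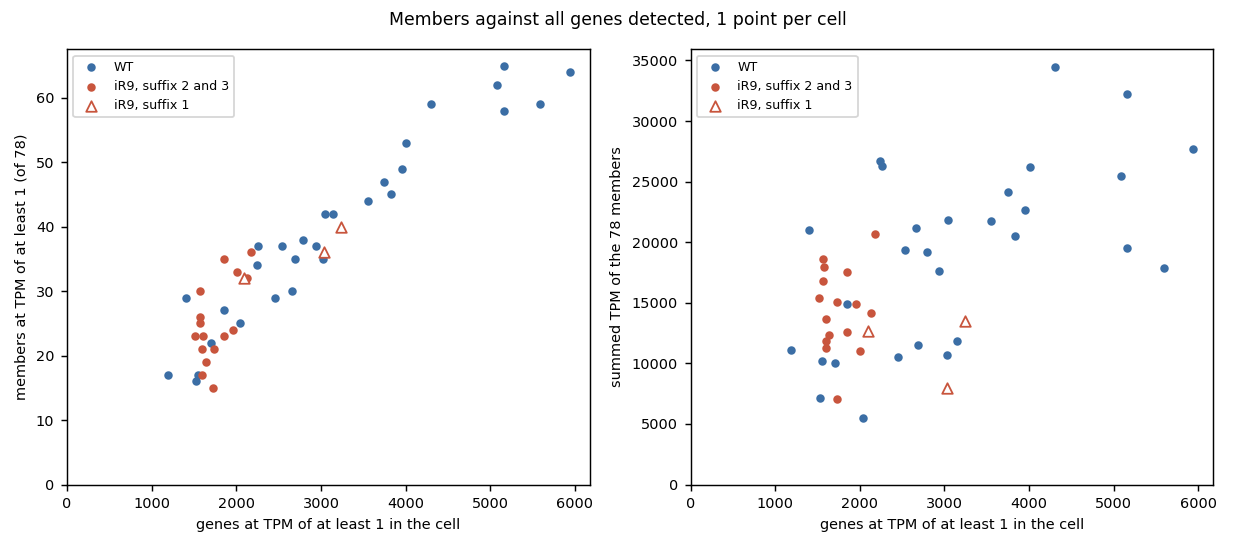
Each point is 1 cell, with the number of genes at 1 TPM or more on the x axis, and on the y axis the number of the 78 members at that level (left) or their summed TPM (right). Members and genes detected climb together in both groups, and the suffix 1 cells (open triangles) lie among WT cells on the left and at 8006 to 13514 TPM on the right.

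The initiation factors of start codon choice and initiator tRNA delivery held a member found in nearly all cells. Eif1, which keeps the scanning ribosome from starting at the wrong codon (chromosome 11, 100319885 to 100322096, GRCm38), ranged from 0 through a median of 924 to 2112 TPM in WT cells and from 398 through 1544 to 3929 TPM in iR9 cells. All 19 iR9 cells and 27 of 29 WT cells were above 10 TPM, and the 2 groups overlapped over most of their range. The means of log2(TPM + 1) were 9.21 ± 2.42 (SD, n = 29) in WT and 10.52 ± 0.81 (SD, n = 19) in iR9 cells, a difference of 1.31. It was 1.88 in the shared range and stayed positive, between 0.71 and 1.88, in each of 16 alternative settings.

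The other factors of this group leaned the other way, near the share of all genes. Of 12 members, 10 had a lower mean (83.3%, background 81.4%) and 2 a higher one. In this group 1 member was lower by at least 2 (8.33%, background 14.4%), and the median was -0.99. Eif2s2, the beta subunit of eIF2 that carries the initiator tRNA, ran from 0 through 83.7 to 899 TPM in WT and from 0 through 46.4 to 809 TPM in iR9 cells, and was at 10 TPM in 25 of 29 and 13 of 19. Its groups overlapped almost fully, with a difference of -1.17. Eif5, which makes eIF2 hydrolyse its GTP, ran from 0 through 106 to 510 TPM in WT and from 0.317 through 59.6 to 676 TPM in iR9 cells, with a difference of -0.91. Eif1a and Eif1ax, 85.6% identical in coding sequence over the bases aligned, may share reads. The member past -2 was Eif2s1, the alpha subunit that stress kinases phosphorylate, named here after its value was seen, with -2.06 and, in the shared range, -1.33. All 3 subunits of eIF2 (Eif2s1, Eif2s2 and Eif2s3x) were found together at 1 TPM or more in 10 of 29 WT cells (34.5%, exact Clopper-Pearson 95% interval 17.9% to 54.3%), against 1 of 19 iR9 cells (5.26%, 0.133% to 26.03%). Only counting error over the cells of 1 sample enters such intervals. Joint counts, here and below, carry the lower number of genes detected in iR9 cells. They were not made in the shared range.

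The exchange factor eIF2B, which reloads eIF2 with GTP, was sparse in both groups. All 5 subunits had a lower mean (background 81.4%), 2 by at least 2 (40%, background 14.4%), with a median of -1.60. Neither of these 2 was past -2 in the shared range. Eif2b2 was at 0 in the median WT and iR9 cell, reached 645 and 362 TPM, and was at 10 TPM in 11 WT and 2 iR9 cells, a difference of -2.03, or -0.78 in the shared range. Eif2b4 reached 694 and 959 TPM and was at 10 TPM in the same numbers of cells, 11 and 2, a difference of -1.60. Eif2b1 differed by only -0.22, with 9 WT and 4 iR9 cells at 10 TPM. Of the eIF2 kinases that answer stress, only Eif2ak1, the haem-regulated kinase, passed the filter, with 6 WT cells at 10 TPM, none of the iR9 cells above 0.389 TPM and a difference of -1.73. Eif2ak2 (PKR) was at 10 TPM in 3 WT and 0 iR9 cells, and Eif2ak4 (GCN2) in 2 of each.

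The eIF3 complex, the scaffold that holds the small subunit open for the messenger, was the largest set of members. All 14 rows had a lower mean in iR9 cells (background 81.4%), 5 of them by at least 2 (35.7%, background 14.4%). The differences ran from -4.30 to -0.19, with a median of -1.56. A WT cell showed a median of 9 of the 14 at 1 TPM or more (3 to 14) and an iR9 cell 7 (1 to 10). In the shared range 4 of them, Eif3g, Eif3i, Eif3k and Eif3l, had a higher mean, so the common direction did not hold there.

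Within eIF3, Eif3d stood furthest out. Eif3d encodes the subunit that can itself bind the cap of some messengers (chromosome 15, 77958998 to 77970813) and ran from 0 through 169 to 1122 TPM in WT and from 0 through 0.277 to 837 TPM in iR9 cells. It was at 10 TPM in 17 of 29 WT cells and in 1 of 19 iR9 cells, the cell 28-3, whose 837 TPM lay inside the WT range. The means were 5.28 ± 3.90 (SD, n = 29) and 0.98 ± 2.20 (SD, n = 19), a difference of -4.30, which was -4.47 in the shared range, -4.60 in the suffix 1 cells and at or below -2 in each of 16 settings.

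Other subunits were higher in level or closer between groups. Eif3h, a regulatory subunit, ran from 0 through 263 to 1181 TPM in WT and from 0 through 1.37 to 889 TPM in iR9 cells, with 21 and 6 cells at 10 TPM and a difference of -3.06. None of the 3 suffix 1 cells reached 1 TPM for it, so its difference there was -6.21. Eif3k, a small peripheral subunit and the eIF3 member of highest level, ran from 0 through 514 to 1990 TPM in WT and from 0 through 530 to 2853 TPM in iR9 cells. Its groups overlapped throughout, with 22 of 29 and 12 of 19 cells at 10 TPM and a difference of -0.70. Eif3g, which also binds RNA, ran from 0 through 205 to 1544 TPM and from 0 through 3.18 to 910.5 TPM, a difference of -0.89. The coding sequences of Eif3j1 and Eif3j2 were identical over all 783 bases aligned, so reads from that part could come from either gene. The rest of the transcripts was not compared, and both rows are uncertain.

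The cap-binding complex eIF4F and its partners split by member. Of 10, 8 had a lower mean (80%, background 81.4%), 3 by at least 2 (30%, background 14.4%), and the median was -1.30. Of these 3, only Eif4a1 was past -2 in the shared range. Eif4a1, the helicase that unwinds the leader (chromosome 11, 69666936 to 69672423, on the minus strand, with the E-box shown above), ran from 0 through 645 to 2688 TPM in WT cells and from 0 through 5.90 to 915 TPM in iR9 cells. It was at 10 TPM in 26 of 29 WT and 9 of 19 iR9 cells, and those 9 lay within the WT range. The means were 8.34 ± 2.92 (SD, n = 29) and 4.57 ± 3.82 (SD, n = 19), a difference of -3.77.

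For Eif4a1 the difference belonged to the iR9 cells of the other suffixes. The suffix 1 cells had 152 TPM (12-1), 313 TPM (17-1) and 915 TPM (14-1), all within the WT range, and differed from WT by 0.13, while the other 16 cells differed by -4.50. In the shared range the difference was -2.57. Its paralogue Eif4a2, 78.2% identical in coding sequence, is given for comparison and was chosen after its values were seen, with a difference of -0.95 over all cells and 2.33 in the suffix 1 cells.

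The cap-binding protein and a helper of the helicase differed less. Eif4e, which binds the cap, ran from 0.164 through 122.6 to 945 TPM in WT and from 0.170 through 1.35 to 1198 TPM in iR9 cells, with 19 and 8 cells at 10 TPM and a difference of -1.27. Eif4h, which stimulates eIF4A, ran from 0 through 202 to 793 TPM and from 0.514 through 221 to 996 TPM, with 17 of 29 and 12 of 19 cells at 10 TPM and a difference of 0.47. For Eif4h the suffix 1 cells differed from WT by 2.95, the other 16 iR9 cells by -0.0014 and suffix 2 libraries alone by -0.36. Their groups overlapped throughout. Eif4a1 and Eif4e were both at 10 TPM in 18 of 29 WT cells (62.1%, 42.3% to 79.3%), against 3 of 19 iR9 cells (15.8%, 3.38% to 39.6%). At 1 TPM or more the counts were closer, 20 of 29 (69.0%) and 9 of 19 (47.4%). Eif4a3, a helicase of the exon junction complex and not of initiation, had 15 WT and 3 iR9 cells at 10 TPM and a difference of -2.24. It was -0.47 in the shared range and -0.08 after quantile normalization.

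The repressors of eIF4E were found in few cells. Eif4ebp1, which binds eIF4E when mTOR is quiet, was at 0 in the median cell of both groups and at 10 TPM in 5 of 29 WT and 4 of 19 iR9 cells, reaching 508 and 914 TPM. Its difference was 0.77. Eif4ebp2 was at 10 TPM in 5 and 1 cells with a difference of -0.63, and Eif4enif1, the carrier of eIF4E into the nucleus, in 4 and 1 with -0.51.

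Eif5a and Eif6 went separate ways. Eif5a, which helps the ribosome past stalling stretches and carries the amino acid hypusine (gene on chromosome 11, minus strand, with the E-box shown above), ran from 0 through 1794 to 7174 TPM in WT and from 24.9 through 1489 to 5084 TPM in iR9 cells. All 19 iR9 cells and 26 of 29 WT cells were at 10 TPM. Its difference of 0.75 came with a lower median TPM in iR9 cells, and the log2 ratio of mean TPM was -0.33. The 3 lowest WT cells, 3-1, 2-1 and 12-1, were at 0, 1.34 and 5.09 TPM. Eif6, which keeps the large subunit from joining too early, ran from 0 through 212 to 2715 TPM in WT and from 0 through 1.19 to 1124 TPM in iR9 cells, with 18 and 6 cells at 10 TPM and a difference of -2.48. In the suffix 1 cells it was 0 (12-1), 249.4 (14-1) and 1124 TPM (17-1), a difference of 0.42, and in the shared range the difference was -1.50.

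**Figure D3:**
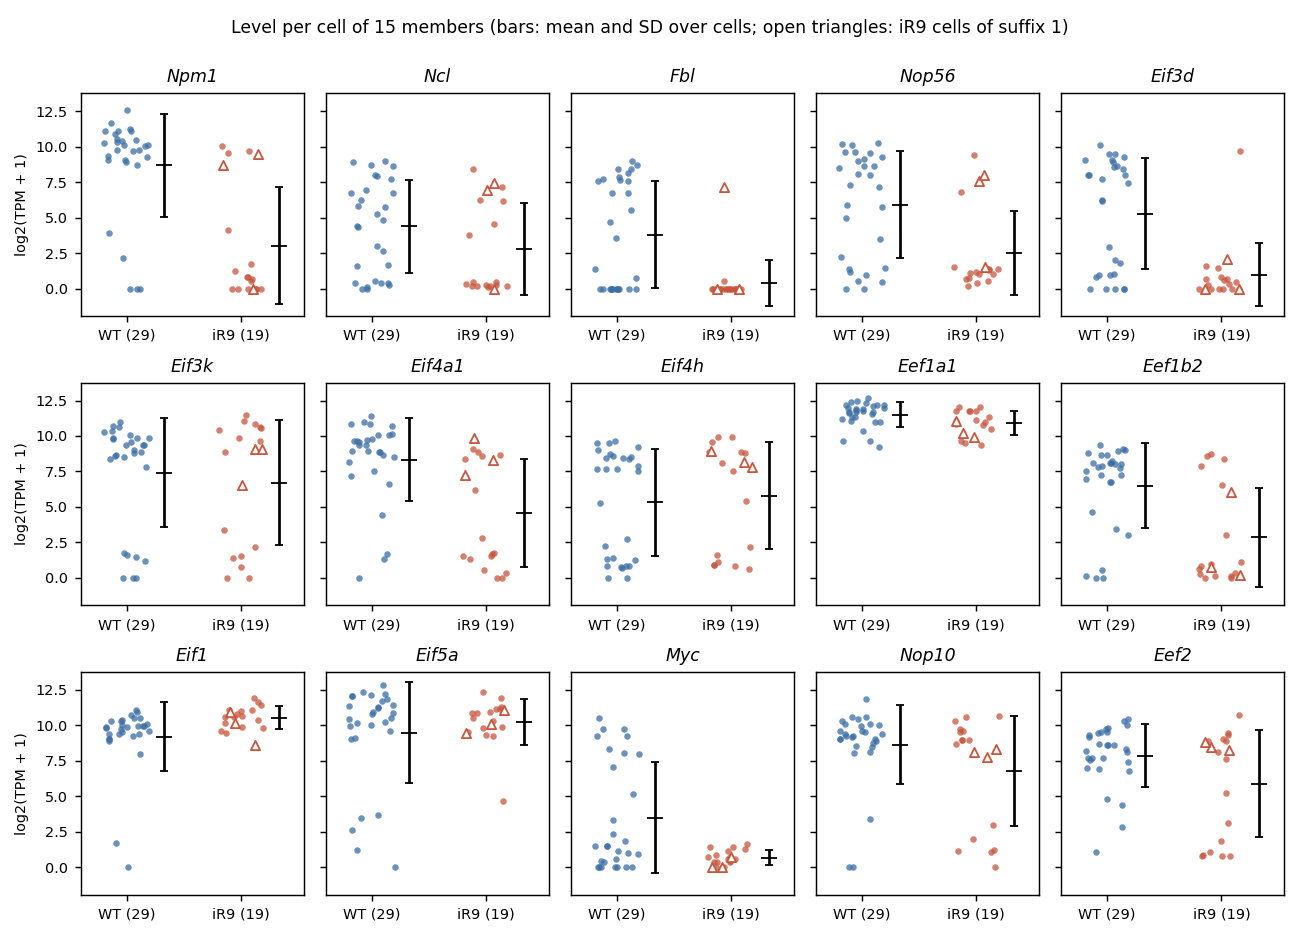
Level of 15 members in each cell as log2(TPM + 1), with the mean and SD over cells beside the points; open triangles are the 3 iR9 cells of suffix 1. Most genes show a cloud near 0 and a second cloud at high level, and iR9 cells of Npm1, Fbl, Eif3d and Myc lie mainly in the low cloud, while Eef1a1, Eif1 and Eif5a are high in nearly all cells.

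The elongation factors included both the steadiest member and some of the lowest. Eef1a1, which carries aminoacyl-tRNA to the ribosome (chromosome 9, 78478449 to 78489151), was above 500 TPM in every cell, from 585 through 3312 to 6484 TPM in WT and from 646 through 2108 to 4319 TPM in iR9 cells. The groups overlapped over nearly all of that range. The means were 11.51 ± 0.86 (SD, n = 29) and 10.92 ± 0.87 (SD, n = 19), a difference of -0.58, smaller than the spread over cells. Eef1a2, the form of muscle and neurons, was at 0 in all 48 cells.

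The subunits that recharge eEF1A with GTP were found in fewer iR9 cells. Eef1b2, the catalytic exchange subunit (chromosome 1, 63176825 to 63180486), ran from 0 through 220 to 651 TPM in WT and from 0 through 0.790 to 432 TPM in iR9 cells, with 23 and 6 cells at 10 TPM and a difference of -3.63. The 6 iR9 cells lay inside the WT range. Eef1g, the subunit that anchors the complex, ran from 0 through 617 to 1736 TPM and from 0 through 39.4 to 702 TPM, with 23 and 10 cells at 10 TPM and a difference of -3.09. Eef1b2 was at -2.71 and Eef1g at -1.51 in the shared range. Eef1b2, Eef1d and Eef1g were found together at 1 TPM or more in 13 of 29 WT cells (44.8%, 26.4% to 64.3%), against 1 of 19 iR9 cells (5.26%, 0.133% to 26.03%).

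Eef2, the translocase, ran from 1.09 through 320 to 1405 TPM in WT and from 0.693 through 277 to 1678 TPM in iR9 cells. It was at 10 TPM in 27 of 29 WT and 12 of 19 iR9 cells; the other 7 lay below 10 TPM, as did 2 WT cells. The difference was -1.97 over all cells and 0.64 in the suffix 1 cells, which had 299 to 456 TPM. Eef2k, the kinase that switches eEF2 off, was at 10 TPM in 10 WT and 5 iR9 cells, and its difference was -0.45. Of the 6 members grouped by symbol as elongation factors that passed, all had a lower mean (background 81.4%). Eef1b2, Eef1d, Eef1e1 and Eef1g, 4 of the 6, were lower by at least 2 (66.7%, background 14.4%), and the median was -2.16. Eef1e1, in this group by its symbol alone, was at -2.22 and, in the shared range, at -0.05. In the shared range only Eef1b2 of the 6 was past -2.

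Among nucleolar genes, Npm1 had the largest difference of all members. Npm1, nucleophosmin, is a chaperone of ribosome assembly and of histones (chromosome 11, 33152287 to 33163206). It ran from 0 through 1043 to 6086 TPM in WT cells and from 0 through 0.746 to 1074 TPM in iR9 cells. In WT, 25 of 29 cells were at 10 TPM, and 3 cells, 4-1, 12-1 and 25-1, were at 0. In iR9, 6 of 19 cells were at 10 TPM: 4 cells of suffix 2 and 3 with 16.9, 757, 829 and 1074 TPM, and the suffix 1 cells 14-1 and 12-1 with 413 and 716 TPM, while 17-1 was at 0. The value of 16.9 TPM averaged a library at 0 with a library at 33.7 TPM.

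The means of Npm1 were 8.68 ± 3.63 (SD, n = 29) and 3.02 ± 4.10 (SD, n = 19), a difference of -5.66. It was -4.34 in the shared range, -2.62 in the suffix 1 cells and -6.23 in the others, and at or below -2 in each of 16 settings. Leaving out each cell in turn moved it between -6.05 and -5.49. The groups overlapped, since the highest iR9 cell passed the WT median and the lowest WT cells lay at 0. Within WT cells Npm1 tracked the other members only loosely, with Pearson r at 0.44 and Spearman rho at 0.45 over 29 cells, and in iR9 cells r was 0.16 and rho 0 over 19.

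The other nucleolar scaffolds were nearer between groups. Ncl, nucleolin, which binds nascent ribosomal RNA, ran from 0 through 26.8 to 519 TPM in WT and from 0 through 0.349 to 351 TPM in iR9 cells, with 17 and 8 cells at 10 TPM and a difference of -1.58. For Ncl this was -0.61 in the shared range and 0.41 in the suffix 1 cells. Gnl3, nucleostemin, a nucleolar GTPase of stem and progenitor cells, had 11 WT and 5 iR9 cells at 10 TPM and a difference of -0.84, or 0.68 in the shared range. The suffix 1 cells were all among those 5, with 146, 348 and 776 TPM, so that the difference was 5.26 for suffix 1 and -1.99 for the rest. Npm1 and Ncl were both at 10 TPM in 15 of 29 WT cells (51.7%, 32.5% to 70.6%), against 4 of 19 iR9 cells (21.1%, 6.05% to 45.6%).

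The box C/D proteins were the only role group with more than 1 member past the filter in which each was lower by at least 2 (background 14.4%). Their median was -3.40. Fbl, fibrillarin, the methyltransferase of the particle (chromosome 7, 28169710 to 28179269), ran from 0 through 10.7 to 501 TPM in WT and from 0 through 0 to 141 TPM in iR9 cells. It was at 10 TPM in 15 of 29 WT cells and in 1 of 19 iR9 cells, and that cell was 12-1, the one with mast cell markers. The means were 3.81 ± 3.76 (SD, n = 29) and 0.41 ± 1.64 (SD, n = 19), a difference of -3.40, and -1.39 in the shared range.

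The partners of fibrillarin had the same direction. Nop56 (chromosome 2, 130274430 to 130279313), a core protein that holds the guide RNA, ran from 0 through 158 to 1213 TPM in WT and from 0.159 through 1.49 to 679 TPM in iR9 cells, with 20 and 4 cells at 10 TPM and a difference of -3.42. In the suffix 1 cells, at 1.84, 188 and 252 TPM, its difference was -0.23. Nop58, the other core protein, ran from 0 through 1.65 to 991 TPM and from 0 through 0.134 to 907 TPM, with 13 and 1 cells at 10 TPM and a difference of -2.62. In the shared range Nop56 was at -2.48 and Nop58 at -1.60, so of the 3 only Nop56 was past -2 there. All 3 proteins were at 1 TPM or more in 9 of 29 WT cells (31.03%, 15.3% to 50.8%), against 1 of 19 iR9 cells (5.26%, 0.133% to 26.03%). At 10 TPM the counts were 6 of 29 and 0 of 19, where 0 allows a share of up to 17.6% by the exact interval.

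The box H/ACA proteins did not share that pattern. Nop10, a small structural protein, ran from 0 through 618 to 3757 TPM in WT and from 0 through 413 to 1615 TPM in iR9 cells, with 26 of 29 and 13 of 19 cells at 10 TPM and a difference of -1.86. Dkc1, dyskerin, the pseudouridine synthase that is also part of telomerase, was at 10 TPM in 12 and 3 cells with a difference of -1.68, and its difference was 0.45 in the shared range. Nhp2 was at 10 TPM in 13 of 29 and 7 of 19 cells, reached 897 and 1112 TPM, and had a difference of 0.23. For Nhp2 this was 2.24 in the shared range and 2.45 in the suffix 1 cells, but -0.19 in the other 16 iR9 cells and -0.98 with suffix 2 libraries alone. All 3 were together at 10 TPM in 10 of 29 WT cells (34.5%, 17.9% to 54.3%), against 0 of 19 iR9 cells (up to 17.6%), and at 1 TPM or more in 10 of 29 and 2 of 19 (10.5%, 1.301% to 33.1%).

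**Figure D4:**
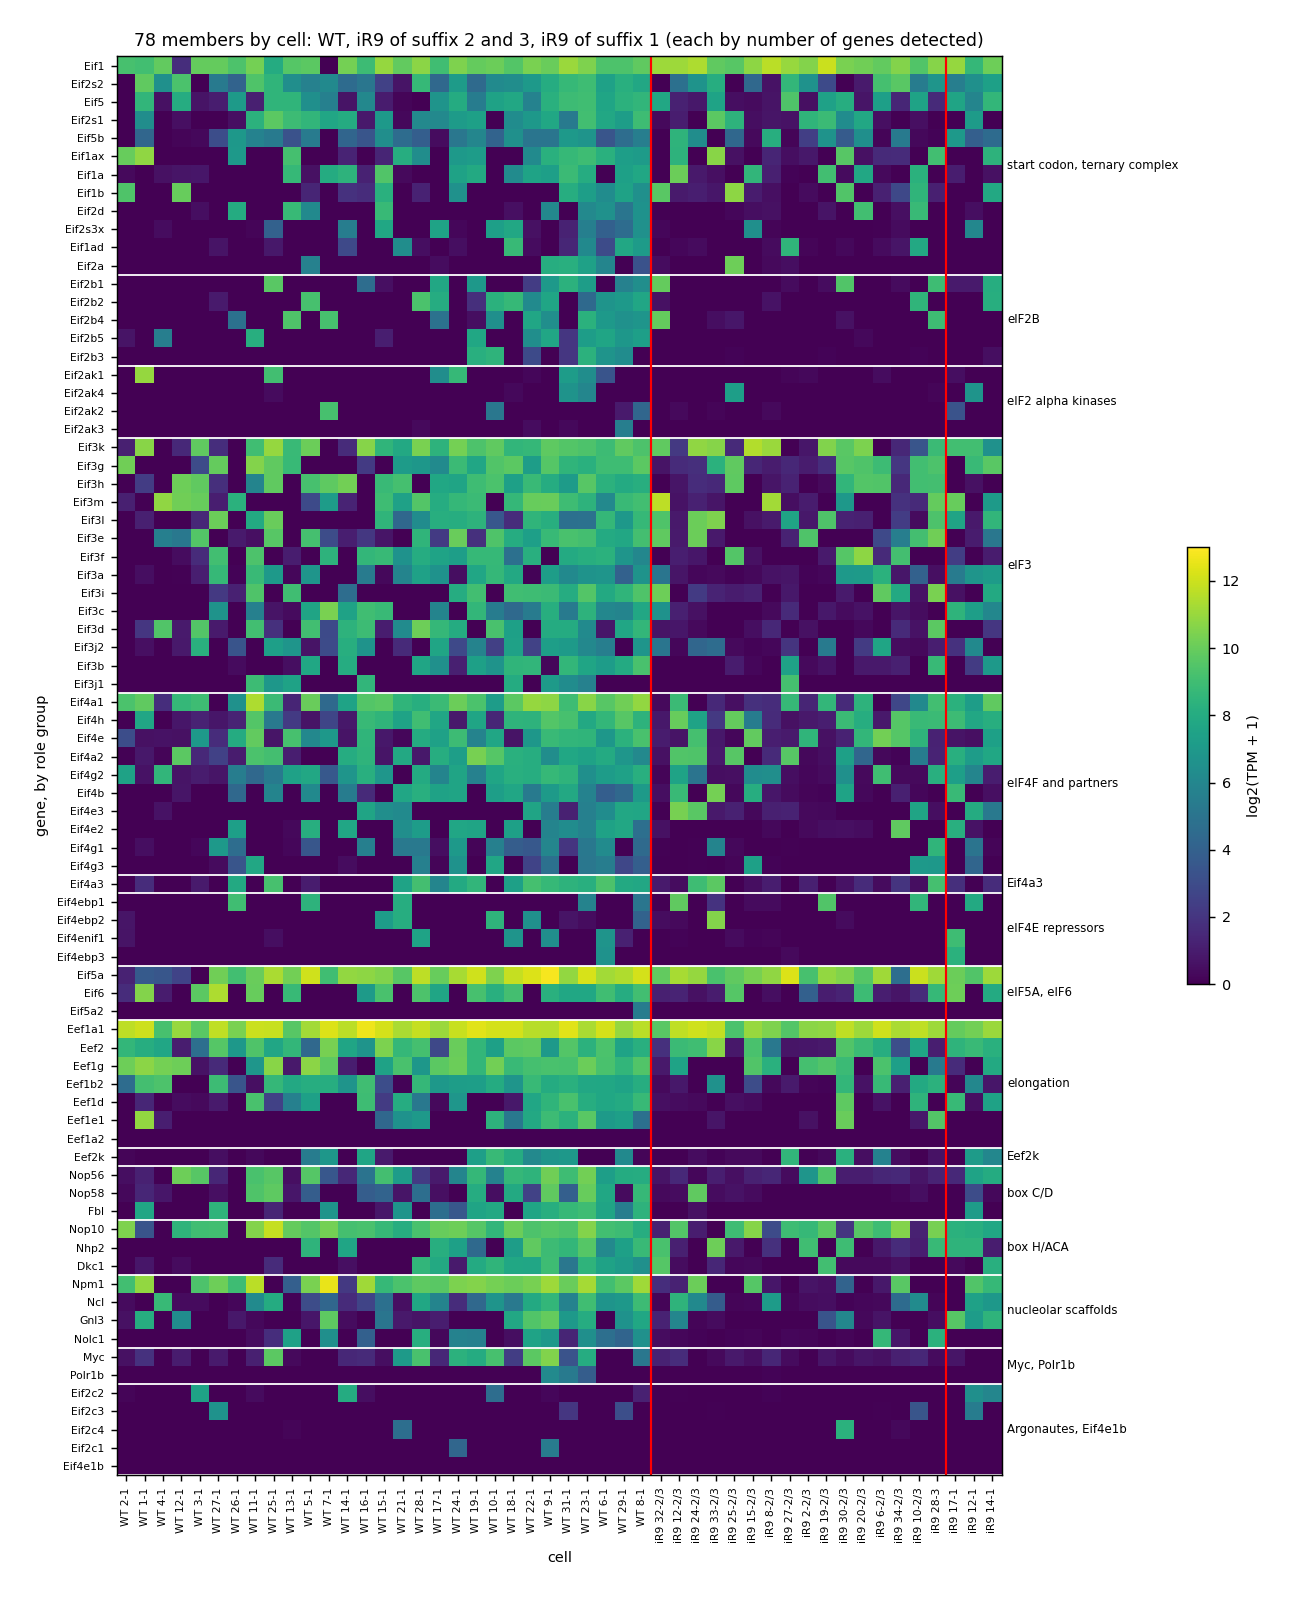
Level of all 78 members as log2(TPM + 1) in each of 48 cells, in role groups from top to bottom; within WT, within the iR9 cells of suffix 2 and 3 and within the 3 iR9 cells of suffix 1, cells are ordered by the number of genes detected. The rows of Eif1, Eif5a and Eef1a1 are bright across nearly all columns, and the WT cells at the right of their block, with most genes, show most members.

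Myc separated part of the WT cells from all iR9 cells. It lies on chromosome 15 (61985391 to 61990374) and ran from 0 through 1.75 to 1479 TPM in WT and from 0 through 0.475 to 2.097 TPM in iR9 cells. In WT 10 of 29 cells were at 10 TPM, while none of the 19 iR9 cells was, although 5 were at 1 TPM or more. The other 19 WT cells lay below 10 TPM, over the range of the iR9 cells and somewhat above it. The means were 3.50 ± 3.88 (SD, n = 29) and 0.66 ± 0.52 (SD, n = 19), a difference of -2.84, which was -1.49 in the shared range. Polr1b, the second subunit of RNA polymerase I, was at 10 TPM in 3 WT cells and did not exceed 0.0737 TPM in iR9 cells, so it did not pass the filter.

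Within the 29 WT cells, Pearson r between Myc and the mean level of the other members was 0.53, and Spearman rho was 0.53. Within the 19 iR9 cells r was -0.28 and rho -0.26, so the direction was not shared by the groups. The mean log2 level of 20 cell cycle genes and that of the members had r 0.61 and rho 0.61 over WT cells. Over iR9 cells these were 0.36 and 0.22. At least 3 of the 20 reached 10 TPM in 10 WT and 0 iR9 cells, their summed TPM ran from 0 to 15445 in WT and from 0 to 1444 in iR9 cells, and Mki67, Mcm2, Birc5, Rrm2, Cdc20, Plk1 and Aurkb were at 0 in all iR9 cells. Without the 5 WT cells that had the most cell cycle genes, 16 of 64 members were lower by at least 2, where 11.6% of all genes were. The part of dividing cells in the difference was not tested further. These measures come from the same libraries and share the number of genes detected, which itself had r 0.93 and rho 0.94 with the mean member level in WT cells.

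The summed TPM of the 78 members had a median of 19487 in WT cells (5518 to 34465) and 13629 in iR9 cells (7021 to 20649). The iR9 range lay inside the WT range. Eef1a1, Eif1 and Eif5a together made up a median of 35.2% of the sum in WT and 38.4% in iR9 cells, and all 3 were at 10 TPM in 25 of 29 WT cells (86.2%, 68.3% to 96.1%) and all 19 iR9 cells (lower limit 82.4%). In the shared range the direction of the sum turned, with medians of 13371 in WT and 13629 in iR9 cells. Since TPM has a fixed total, the sum is a share of each library and not an amount of RNA per cell. Cytosolic ribosomal proteins, which these factors serve, had a median of the per-cell mean log2 level of 8.77 in WT and 7.27 in iR9 cells.

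**Figure D5:**
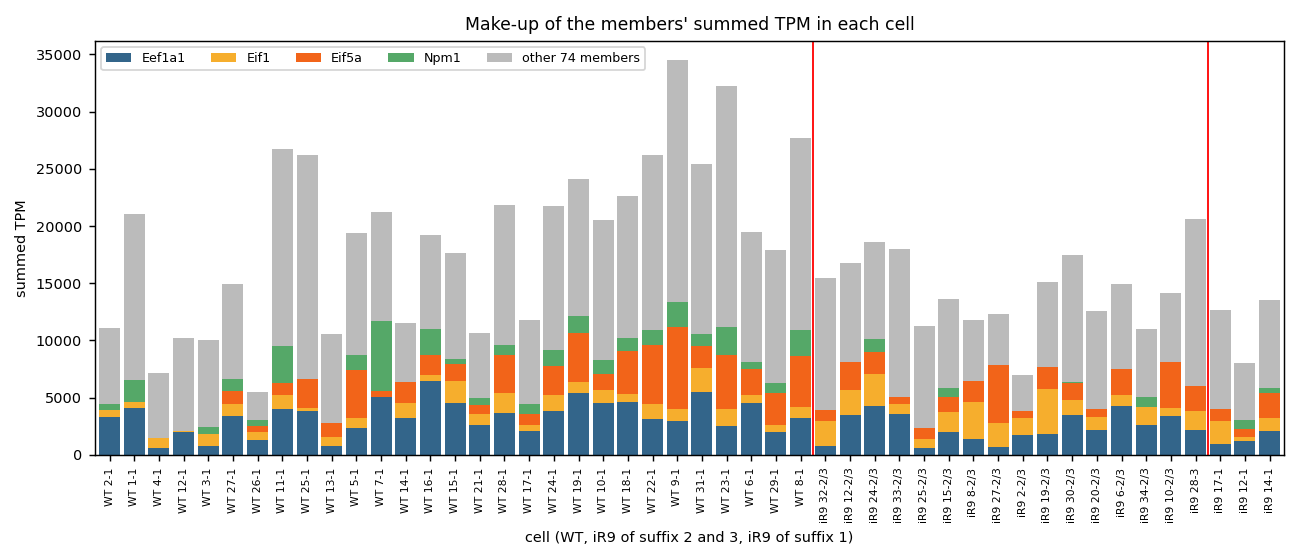
Summed TPM of the 78 members in each cell, stacked as Eef1a1, Eif1, Eif5a, Npm1 and the other 74 members, with cells in the same order as in the plot of all members by cell. The Npm1 part is visible in most WT bars and in few iR9 bars, and the 3 abundant factors fill a similar share in both groups.

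Other genes of the pathway were read from 8 lists with 115 genes, of which 84 passed the filter. Of these 70 had a lower mean (83.3%, against the background of 81.4%) and 14 a higher one. A further count found 15 lower by at least 2 (17.9%, against the background of 14.4%) and 1 higher by at least 2 (1.19%, background 1.72%). Their median was -1.05, between that of the members and that of all genes. By this count the partner genes lay close to the background. The pathway lists and their genes were not read in the shared range. Over all cells the group and the number of genes detected could not be told apart, which holds for every pathway value below.

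Among release, recycling and poly(A)-binding genes 11 of 13 had a lower mean (84.6%, against the background of 81.4%). Of the 13, 5 were lower by at least 2 (38.5%, against the background of 14.4%), and the median was -1.66. Pabpc1, the poly(A)-binding protein that bridges to eIF4G, ran from 0 through 108 to 1138 TPM in WT and from 0 through 1.01 to 1147 TPM in iR9 cells, a difference of -3.40. Its inhibitor Paip2 ran from 3.53 through 875 to 4914 TPM and from 0.452 through 217 to 1887 TPM, a difference of -2.87. Mcts1, a reinitiation factor, differed by -2.84.

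Ribosomal RNA processing and transcription lay near the background. In pre-rRNA processing 21 of 24 had a lower mean (87.5%, against 81.4% of all genes) and 4 were lower by at least 2, with a median of -1.08. Rrp1, a large subunit processing factor, ran from 0 through 299 to 1257 TPM in WT and from 0 through 1.15 to 763 TPM in iR9 cells, a difference of -4.08 that was -0.47 in the suffix 1 cells. Rsl24d1 and Rrs1, both of large subunit assembly, differed by -2.19 and -2.10. Of 15 RNA polymerase I genes 12 had a lower mean (80%) and 2 were lower by at least 2, Polr2h, a subunit shared by the nuclear polymerases, with -2.85 and Taf1d with -2.30, and Cd3eap differed by -1.88. The snoRNP partners had 0 of 7 past -2, with Nop2 at -1.95, Gar1 at -1.90 and Rrp9 at -0.97.

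In the signalling lists, 2 of 8 mTOR pathway genes were lower by at least 2 (25%, background 14.4%), with a median of -1.46. They were Mknk2, a kinase of eIF4E, with -2.60 and Rps6kb2, an S6 kinase, with -2.07. Ddit4 differed by -1.93. Rps6kb2 was at 0 in all iR9 cells and at 10 TPM in 8 WT cells. Of the MYC network, 1 of 6 was lower by at least 2, Max, the partner of MYC, with -2.65, where 11 WT and 1 iR9 cells were at 10 TPM; Mycn differed by -0.96 and Mxi1 by -0.76. The integrated stress response had 0 of 4 past -2, with Ddit3 at -1.91, Ppp1r15a at -1.24 and Atf4 at -0.80.

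The enzymes around eIF5A hypusination and its polyamine substrate were mixed, with 3 lower and 4 higher of 7 and a median of 0.09. Srm, spermidine synthase, ran from 0 through 32.02 to 2081 TPM in WT and from 0 through 0.611 to 576 TPM in iR9 cells, with 15 and 2 cells at 10 TPM and a difference of -3.24. Dhps, deoxyhypusine synthase, differed by -1.79. Sat1, which acetylates spermidine and spermine for export or breakdown, was the 1 pathway gene higher by at least 2, from 0 through 128 to 3651 TPM in WT and from 3.46 through 870 to 3486 TPM in iR9 cells, with 17 of 29 and 14 of 19 at 10 TPM and a difference of 2.20. The iR9 values of Sat1 lay within the WT range.

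The 10 members that did not pass the filter were Eef1a2, Eif2ak2, Eif2ak3, Eif2ak4, Eif2c1, Eif2c4, Eif4e1b, Eif4ebp3, Eif5a2 and Polr1b. Eif4e1b, a form of eIF4E known from oocytes, was at 0 in all cells, as was Eef1a2, and Eif5a2 was at 10 TPM in 1 WT cell and in none of the iR9 cells. Of the Argonaute rows, Eif2c2 (now Ago2) and Eif2c3 (Ago3) passed, with differences of -0.11 and 0.07, at 10 TPM in 3 and 1 WT cells and 2 and 1 iR9 cells, and Eif2c4 was at 10 TPM in 1 cell of each group. Without the Argonaute rows, 22 of 66 members that passed were lower by at least 2 (33.3%) and the median was -1.55.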

How the data were processed

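Single sorted cells were amplified from polyA RNA with a whole-transcriptome kit, and a transposase kit made the libraries, as the labels state. The unit deposited by the authors is TPM, 1 value for each symbol in each library. The submitters' processing notes name the build mm10 with bcl2fastq 2.16.0.10, HISAT2 2.1.0, StringTie 1.3.4 and SAMtools 0.1.19 but no order of steps, and the annotation used is not given in the sources used here. TPM keeps no depth, so count models could not be applied and how precise low values are is unknown.

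Of 23420 rows, 27 whose symbol had become a date were left out of gene values (at most 0.540% of a library's TPM). Same-number iR9 libraries of suffix 2 and 3 were averaged in TPM. Differences are of mean log2(TPM + 1), with a pseudocount of 1 and the filter given in the report, and a gene is called at a difference of 2 in either direction. Each group is 1 sample, so no test was run. Scripts were tested on simulated data. No doublet caller was run on these sorted single cells.

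Named genes were, in each role group, up to 3 members of highest mean over both groups, with Npm1, Ncl, Myc, Polr1b, Eif4ebp1, Eef1a1 and Eef2, the 6 largest differences in each direction among members detected in at least 50% of the higher group, and up to 3 genes per pathway list. The members, lists and rules were chosen with earlier results of these data known. Of 78 symbols, 74 matched GENCODE M21 directly and 4 through RefSeq synonyms. Coordinates are on GRCm38, the assembly that mm10 names. Coding sequences of paralogues were aligned from GENCODE M21, in place of a planned comparison of proteins. The software was pandas 2.3.3, SciPy 1.17.1 and NumPy 2.4.6 under Python 3.11.15, with matplotlib 3.10.9 for figures.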

Additional observations from a re-analysis of the deposited data

How the results depend on the processing

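No paired analysis was possible because no result here is a tested one and no animal or culture common to the groups is named. The number of members lower by at least 2, 22 over all cells, was 7 in the shared range of genes detected, 7 after quantile normalization (10% of members, 3.34% of all genes), 6 with a pseudocount of 10 (8.82% and 2.44%), 14 among genes in at least 50% of cells (40% and 23.6%) and 10 as log2 ratios of mean TPM (14.7% and 26.9%), where the members lay below all genes. Members higher by at least 2 numbered 0 over all cells (background 1.72%) and 1 of 61 in the shared range (background 3.84%). With suffix 1 cells alone 8 of 69 were, as were 852 of 7758 genes. The count was 3 of 70 after quantile normalization and 13 of 68 with the iR9 cells 14-1 and 17-1 alone. No share of all genes was counted for these last 2 settings, so their counts cannot be set against a background. Members with a lower mean, 60 of 68 over all cells (background 81.4%), numbered 39 of 61 in the shared range (background 64.2%). They numbered 31 of the 35 members in at least 50% of cells (background 71.0%). With cells 14-1 and 17-1 alone they numbered 38 of 68, where no share of all genes was counted. The median difference was -0.27 after quantile normalization. The difference in median summed TPM, -5858, was 257 in the shared range.

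With cells 14-1 and 17-1 alone, 18 of the 42 named members changed sign, among them Eif2b2 to 1.10, Eif4a1 to 0.73, Eif6 to 3.44, Gnl3 to 5.87, Eif4enif1 to 3.46, Eif5 to 2.69, Eif2b1 to 2.24, Eif2c2 to 2.21, Eif4ebp1 to -1.26 and Dkc1 to 0.96, and with suffix 1 alone Eif4a1 turned to 0.13 and Eif6 to 0.42. Group medians with cells 14-1 and 17-1 were 0.60 for eIF4F and partners, 2.27 for eIF5A and eIF6, 0.96 for box H/ACA and -0.29 for the eIF2 kinases. The median of the kinases that passed each filter was -0.61 with suffix 1, 0.39 after quantile normalization and -0.34 with no gene filter. As ratios of mean TPM it was -6.74, which is Eif2ak1 alone. The eIF4E repressors were at 1.37 with suffix 1 and 1.40 as ratios of mean TPM. Myc, without Polr1b, which did not pass, was at -0.51 after quantile normalization and -6.80 as a ratio of mean TPM. In 7 of 14 role groups the median changed sign in some setting. The cause of these changes was not tested.

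When each cell was left out in turn, the members lower by at least 2 stayed between 18 and 25, those with a lower mean between 58 and 62, the median between -1.60 and -1.38, the difference in members detected between -12.5 and -11.5 and that in summed TPM between -6374 and -5585. The filter on genes in at least 50% of cells, the setting with cells 14-1 and 17-1 and that without 5 cells with mast cell or myeloid markers were chosen after seeing the data.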
